A study of Mus musculus with 9 samples.

Results

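The genes of the tumor necrosis factor (TNF) superfamily and of NF-kB signaling were followed in T-cells that were isolated from the marrow of mice with and without B-cell acute lymphoblastic leukemia (B-ALL). A probe was a member when its gene symbol begins with Tnf, Traf, Nfkb or Ikbk or is Rel, Rela or Relb, which gave 20 of the 785 probes of the panel. By role they were 5 ligands, 7 receptors, 1 adaptor, 3 NF-kB subunits, 3 inhibitors of NF-kB and 1 other gene, while no probe with an Ikbk, Rel or Relb symbol was matched. All mice were female wild-type C57BL/6 of 6 to 8 weeks, and there were 3 groups of 3: no leukemia, leukemia with vehicle, and leukemia with recombinant IL-12 (rIL-12). Leukemia was started by injecting 200000 BCR-ABL1+ Arf-/- B-ALL cells into a tail vein of hosts that had not been irradiated. rIL-12 was given daily in 5 doses of 1 µg from day 3. The study's text calls the leukemic mice without rIL-12 vehicle treated, while its legend for this assay uses both untreated and vehicle treated. The sample labels list them as not treated. They are called the vehicle group here, and whether they received vehicle was not settled. Bone marrow was taken at day 7, T-cells were enriched with a pan-T-cell kit, and their RNA was hybridized to the nCounter Mouse Immune Exhaustion panel, in which color-coded probes bind RNA molecules and are counted without amplification.

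TNF superfamily ligands sit on or are shed from immune cells and bind receptors on their neighbours. Some receptors carry a death domain and can start apoptosis, while costimulatory receptors such as CD137 (Tnfrsf9) and OX40 (Tnfrsf4) recruit TRAF adaptors and prolong the activation of T-cells. Both kinds can release NF-kB dimers from their inhibitors, and the inhibitor Nfkbia, the precursor Nfkb2 and the deubiquitinase gene Tnfaip3 are themselves well known transcriptional targets of NF-kB.

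Promoter windows are shown for the 4 members that passed the threshold in a comparison, because several members are known NF-kB targets. They come from RefSeq on the build GRCm38.p6, run from 250 bases before to 50 bases after an annotated transcription start, are read 5′ to 3′ on the strand of the gene, and carry capitals where the NF-kB consensus was matched on either strand. Tnfrsf9 is shown by the second of its 2 windows at chr4:150927749-150928048 on the plus strand, Nfkb2 by the first of 3 at chr19:46304487-46304786 on the plus strand, Tnfaip3 by the second of 2 at chr10:19015361-19015660 on the minus strand, and Tnfsf10 by its single window at chr3:27316827-27317126 on the plus strand.
Tnfrsf9: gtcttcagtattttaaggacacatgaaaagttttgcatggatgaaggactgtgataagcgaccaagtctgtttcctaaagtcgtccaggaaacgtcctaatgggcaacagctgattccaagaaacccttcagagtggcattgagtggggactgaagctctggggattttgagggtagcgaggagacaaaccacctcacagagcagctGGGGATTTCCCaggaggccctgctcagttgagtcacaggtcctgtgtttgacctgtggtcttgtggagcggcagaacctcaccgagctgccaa
Nfkb2: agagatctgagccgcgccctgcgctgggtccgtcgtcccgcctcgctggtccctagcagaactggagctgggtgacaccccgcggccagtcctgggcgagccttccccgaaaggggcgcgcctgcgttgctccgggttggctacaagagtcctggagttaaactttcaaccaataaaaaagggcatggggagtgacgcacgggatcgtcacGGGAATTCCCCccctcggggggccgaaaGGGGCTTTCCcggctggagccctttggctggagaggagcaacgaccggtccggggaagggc
Tnfaip3: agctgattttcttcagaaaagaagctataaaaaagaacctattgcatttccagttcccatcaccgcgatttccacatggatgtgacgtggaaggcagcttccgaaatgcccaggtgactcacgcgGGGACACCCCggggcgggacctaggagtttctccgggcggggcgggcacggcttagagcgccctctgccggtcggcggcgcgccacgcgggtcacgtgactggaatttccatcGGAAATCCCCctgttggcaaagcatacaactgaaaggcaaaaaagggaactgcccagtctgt
Tnfsf10: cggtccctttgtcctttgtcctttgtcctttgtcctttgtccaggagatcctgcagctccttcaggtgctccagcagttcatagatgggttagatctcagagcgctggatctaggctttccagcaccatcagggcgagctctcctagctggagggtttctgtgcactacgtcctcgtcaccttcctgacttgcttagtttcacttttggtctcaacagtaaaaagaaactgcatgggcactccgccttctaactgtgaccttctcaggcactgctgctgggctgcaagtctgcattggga
In the Tnfrsf9 window, overlapping matches lay 43 to 33 bases before the start. Nfkb2 had matches 39 to 29 and 11 to 2 bases before its start, and Tnfaip3 had them 125 to 116 and 12 to 3 bases before its start. No match was found in the Tnfsf10 window, nor in the other windows of Tnfrsf9 and Tnfaip3. Windows were found for 16 of the 20 members (20 windows), and 5 of these 16 genes had a match (Nfkb2, Nfkbia, Nfkbie, Tnfaip3 and Tnfrsf9). The consensus was also matched in 8.46% of all 32851 windows and in the windows of 15.1% of the 583 panel genes that had one. A second motif, TTCNNNGAA, the palindrome bound by STAT factors, was matched in 4 of the 16 genes (Nfkb2, Tnfrsf1a, Tnfrsf1b and Tnfrsf9), in 8.30% of all windows and in 10.6% of the panel genes. The letters GAAA, any 2 bases and GAAA again, a motif of interferon-responsive genes, were matched in 3 of the 16 (Tnfrsf14, Tnfrsf17 and Tnfrsf1b), in 3.44% of all windows and in 6.17% of the panel genes. These motifs were searched on both strands, and a match describes the letters of a window and shows neither binding nor use.

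**Figure D1:**
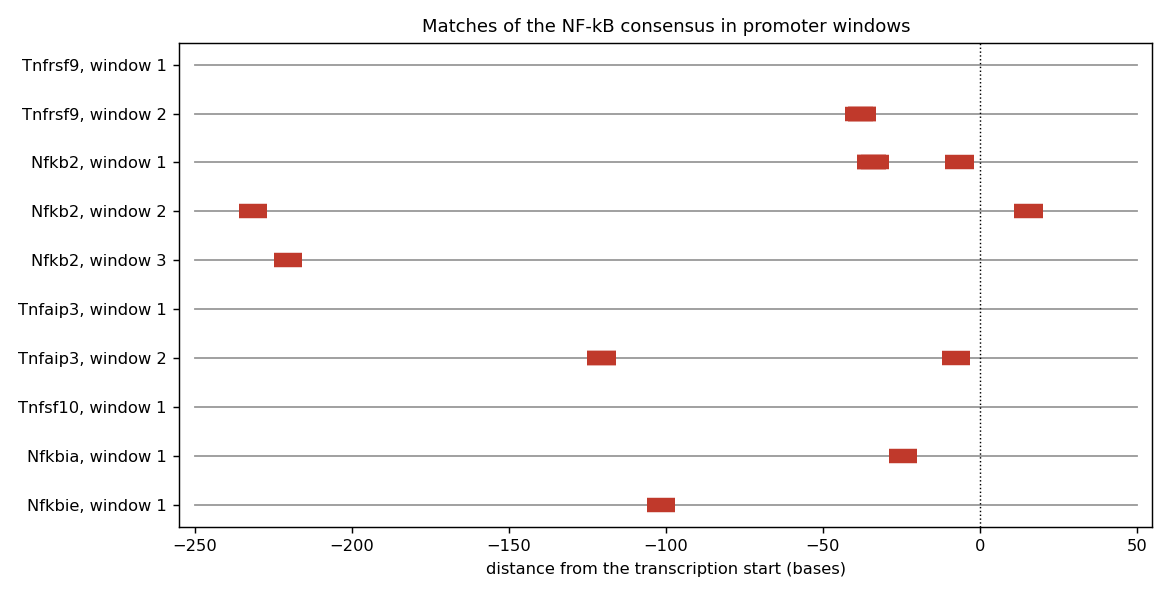
Positions of NF-kB consensus matches (red bars) in RefSeq promoter windows of the members that passed the threshold and of Nfkbia and Nfkbie, as distance in bases from the annotated transcription start. Each grey line is 1 window from 250 bases before to 50 after the start. Both windows of Nfkb2 below its first overlap each other and share a match, and the line of Tnfsf10 is empty.

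Total counts were between 257613 and 711748 per mouse, the lowest in vehicle mouse 3. No probe was at 0, and the lowest count was 5 over all probes and 16 among members. The probe of a viral gene, taken as the background, had 53 to 114 raw counts with a mean of 91. Mean counts were at or below that mean for 4 members (Tnfsf9, Tnfsf18, Tnfrsf4 and Tnfrsf10b), so their values may hold background. The same was so for 252 of all 785 probes. Normalized counts below are raw counts divided by a scaling factor per mouse (edgeR's TMM). A gene was called higher or lower when it differed by 1.5-fold or more and edgeR's quasi-likelihood test, adjusted after Benjamini-Hochberg across the 785 probes, gave a p under 0.05. Replicates were separate mice. Since each value is from bulk RNA of an isolate, fewer cells of a type and less RNA per cell cannot be told apart.

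In leukemic mice of the vehicle group, Tnfrsf9 and Nfkb2 were higher than in mice without leukemia, and no member was lower. These were 2 of 20 members, where 1.27% of all probes were called higher and 1.40% lower. With the replicate number as a block, 1 of them (Tnfrsf9) was called higher. Against mice without leukemia, the rIL-12 group had 1 member higher (Tnfsf10) and 1 lower (Tnfaip3), where 8.92% of all probes were higher and 8.66% lower. Between the leukemic groups, 1 member was lower with rIL-12 (Tnfrsf9) and 0 were higher in edgeR, where 5.22% of probes were lower and 8.54% higher. At an unadjusted p under 0.05, 2 members were higher with rIL-12 than with vehicle (Tnfsf10 and Tnfrsf1b), beside 18.6% of probes, and DESeq2 called 1 (Tnfsf10). In the comparison of vehicle with no leukemia, 0 members were lower at that unadjusted p as well, beside 7.39% of probes, and DESeq2 called 0. The 3 comparisons share groups of mice with each other and are not independent.

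**Figure D2:**
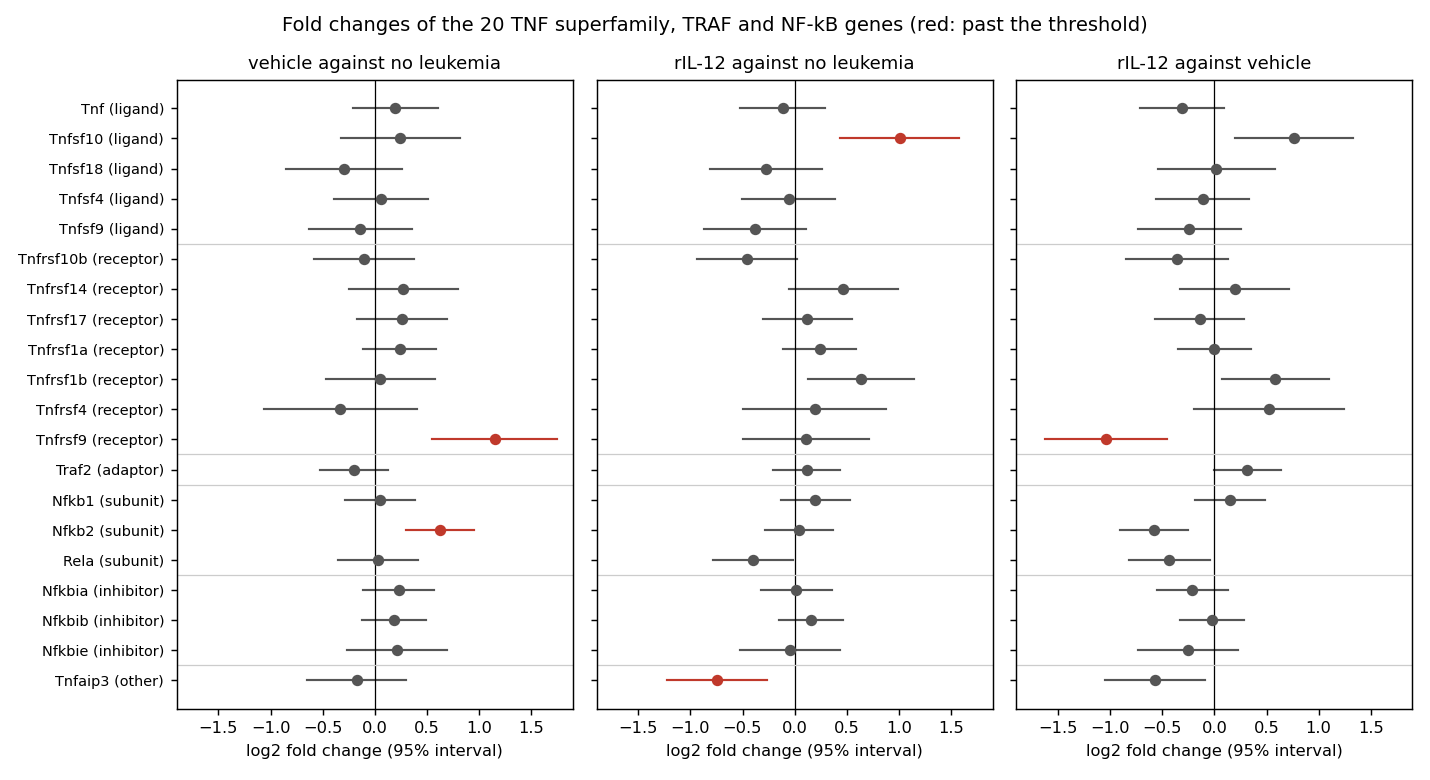
Log2 fold changes of all 20 members with their 95% intervals, grouped by role, in the 3 comparisons. Red points passed the threshold: Tnfrsf9 and Nfkb2 with vehicle against no leukemia, Tnfsf10 and Tnfaip3 with rIL-12 against no leukemia, and Tnfrsf9 with rIL-12 against vehicle.

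Among the ligands, Tnfsf10 was higher in rIL-12 treated mice. Tnfsf10 encodes TRAIL, which triggers apoptosis through death receptors and is known as an interferon-responsive gene. Its normalized counts were 257, 196 and 221 in mice 1, 2 and 3 without leukemia, 234, 339 and 224 with vehicle, and 272, 580 and 506 with rIL-12. All rIL-12 treated mice lay above all mice without leukemia, but mouse 1 of the rIL-12 group lay close to them and below the highest vehicle mouse. Against no leukemia the log2 fold change with rIL-12 was 1.01 (standard error 0.26, 95% interval 0.44 to 1.58, adjusted p = 0.0171), a 2.01-fold increase. Against vehicle it was 0.76 (0.19 to 1.33, adjusted p = 0.0647), short of the threshold, and vehicle against no leukemia gave 0.25 (adjusted p = 0.732). The call against no leukemia was lost without mouse 1, 2 or 3 of the leukemia-free group (adjusted p = 0.0537, 0.0778 and 0.0525) or mouse 2 of the rIL-12 group (adjusted p = 0.0928), with log2 fold changes of 0.79 to 1.27 when any 1 of the 9 mice was left out. Scaling by housekeeping genes gave 0.73 (adjusted p = 0.108), and adjusted p over all alternatives ran from 0.00100 to 0.212.

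Tnf itself, the founding cytokine of the family, was not called in any comparison. Its normalized counts were 177, 161 and 157 without leukemia, 159, 175 and 237 with vehicle, and 145, 139 and 173 with rIL-12. The groups overlapped, and the highest value was that of vehicle mouse 3. Log2 fold changes were 0.20 (-0.21 to 0.60) for vehicle and -0.12 (-0.52 to 0.29) for rIL-12 against no leukemia, and -0.31 (-0.72 to 0.09) for rIL-12 against vehicle. The costimulatory ligand Tnfsf4 (OX40 ligand) had means of 99.4 ± 24.7 (SD, n = 3), 104 ± 2.74 and 95.9 ± 13.3 in the leukemia-free, vehicle and rIL-12 groups. Tnfsf9, the ligand of CD137, had 97.6 ± 14.3, 90.0 ± 26.8 and 74.8 ± 8.04, and Tnfsf18, a costimulatory ligand, had 34.2 ± 5.37, 27.7 ± 3.28 and 28.1 ± 6.45. Of these 3, Tnfsf9 had all rIL-12 treated mice below all mice without leukemia, with a log2 fold change of -0.38 (-0.87 to 0.11, adjusted p = 0.283). Their other log2 fold changes lay between -0.29 and 0.06.

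**Figure D3:**
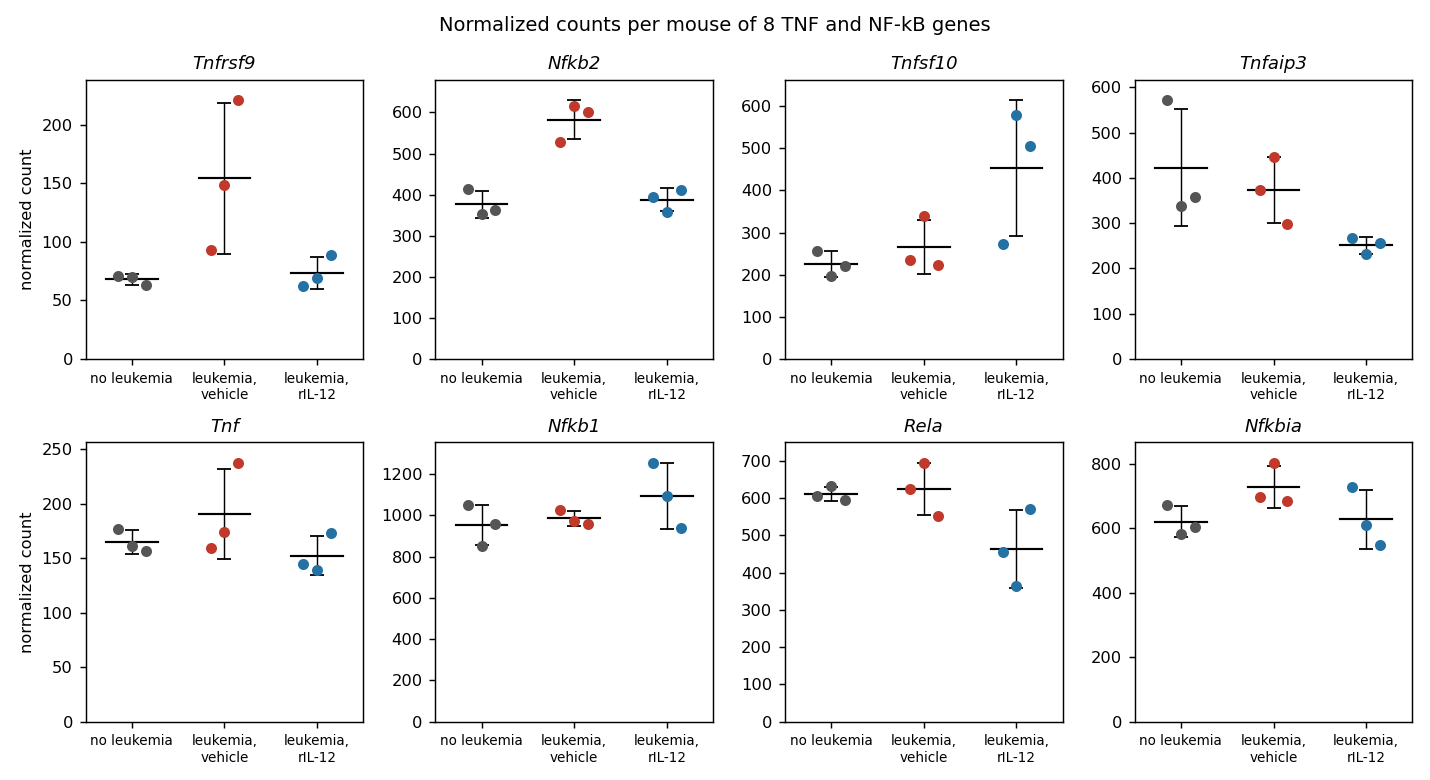
Normalized counts of the 4 members that passed the threshold (upper row) and of Tnf, Nfkb1, Rela and Nfkbia (lower row), with 1 point per mouse, the group mean as a horizontal line and the SD as an error bar (n = 3 mice). Vehicle mice lie above both other groups for Tnfrsf9 and Nfkb2, rIL-12 treated mice lie above leukemia-free mice for Tnfsf10 and below both other groups for Tnfaip3, and the groups overlap for Tnf and Nfkb1.

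Tnfrsf9, which encodes the costimulatory receptor CD137 of activated T-cells, had the largest differences of the 7 receptors between vehicle and either other group. Normalized counts were 71.1, 69.8 and 62.8 without leukemia, 92.9, 149 and 221 with vehicle, and 62.4, 69.3 and 89.0 with rIL-12. Every vehicle mouse lay above every mouse of both other groups, which overlapped each other, and vehicle mouse 1 was only just above the highest rIL-12 treated mouse. Vehicle against no leukemia gave a log2 fold change of 1.15 (standard error 0.28, 95% interval 0.55 to 1.75, adjusted p = 0.0414), a 2.22-fold increase. With rIL-12 against vehicle, Tnfrsf9 fell by 1.04 on the log2 scale (standard error 0.27, interval -1.63 to -0.45, adjusted p = 0.0236). Between rIL-12 and no leukemia the log2 fold change was 0.11 with an interval of -0.50 to 0.72, which allows a difference in either direction.

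The Tnfrsf9 values rest on few counts. Raw counts were 65 to 69 without leukemia, 92, 161 and 132 with vehicle and 72 to 86 with rIL-12, so the leukemia-free and rIL-12 groups lay within the range of the viral probe and vehicle mouse 1 had the same raw count as that probe (92). The largest normalized value came from vehicle mouse 3, which had the lowest depth. Without this mouse the log2 fold changes were 0.83 (adjusted p = 0.167) against no leukemia and -0.72 (adjusted p = 0.0816) for rIL-12 against vehicle. The call against no leukemia was also lost without mouse 1, 2 or 3 of the leukemia-free group (adjusted p = 0.201, 0.0809 and 0.218), vehicle mouse 2 (0.187) or rIL-12 mouse 2 (0.0525), with adjusted p of 0.00294 to 0.347 over all alternatives. For rIL-12 against vehicle it was lost without leukemia-free mouse 1 (adjusted p = 0.0565), vehicle mouse 2 (0.0631), rIL-12 mouse 1 (0.0723) or rIL-12 mouse 2 (0.107), with 0.00518 to 0.281 over all alternatives. Vehicle mouse 3 was the highest of the 9 mice for 6 of the 20 members (Nfkbie, Tnf, Tnfrsf10b, Tnfrsf17, Tnfrsf9 and Tnfsf9) and for 28.9% of all probes.

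None of the other 6 receptors was called in any comparison. Tnfrsf1b, the TNF receptor that lacks a death domain and is found on activated and regulatory T-cells, had 79.3 ± 11.1 (SD, n = 3), 83.1 ± 12.02 and 124 ± 38.7 normalized counts in the leukemia-free, vehicle and rIL-12 groups. Its log2 fold change with rIL-12 was 0.64 (0.13 to 1.14, adjusted p = 0.0729) against no leukemia and 0.59 (0.08 to 1.10, adjusted p = 0.0974) against vehicle. Both passed the threshold in only 1 of 22 alternatives, without rIL-12 mouse 3, with 0.82 and 0.77. Calls over all probes also rose there, from 138 to 194 and from 108 to 199. Raw counts of Tnfrsf1b were 70 to 95 without leukemia and 58 to 81 with vehicle, within the range of the viral probe (53 to 114). Tnfrsf1a, the TNF receptor with a death domain, had 1017 ± 45.3, 1200 ± 185 and 1202 ± 165. Tnfrsf14, which binds the coinhibitory receptor BTLA, had 1806 ± 333, 2184 ± 752 and 2500 ± 422, with a log2 fold change of 0.47 (-0.06 to 0.99) for rIL-12 against no leukemia. The plasma cell receptor BCMA (Tnfrsf17) had 154 ± 9.38, 186 ± 52.9 and 167 ± 10.8, where vehicle mouse 3 alone reached 247. The remaining receptors were at or below the viral probe. OX40 (Tnfrsf4) had 48.3 ± 3.42, 39.1 ± 9.02 and 54.7 ± 29.4, of which the last rests on rIL-12 mouse 2 at 88.6 while mice 1 and 3 had 38.1 and 37.2. The death receptor Tnfrsf10b, which binds TRAIL, had 68.7 ± 2.47, 65.6 ± 19.97 and 49.8 ± 2.63, and its rIL-12 treated mice lay below all leukemia-free mice with a log2 fold change of -0.46 (-0.93 to 0.02, adjusted p = 0.164).

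Ligands and receptors that bind each other did not share their calls. Tnfrsf9 was called in the comparisons with vehicle while its ligand Tnfsf9 had log2 fold changes of -0.14 for vehicle against no leukemia and -0.24 for rIL-12 against vehicle. Tnfsf10 was called with rIL-12 against no leukemia, where its receptor Tnfrsf10b had -0.46. For Tnf the same comparison gave -0.12, with 0.24 for Tnfrsf1a and 0.64 for Tnfrsf1b, and for Tnfsf4 it gave -0.06 with 0.19 for Tnfrsf4. Tnfsf9, Tnfrsf10b and Tnfrsf4 had mean counts at or below the viral probe's mean, which limits what a missing call there can show. A difference between the members of a pair was not tested.

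Traf2, the adaptor that links TNF receptors and CD137 to NF-kB and kinase signaling, had 607 ± 29.7 (SD, n = 3), 528 ± 61.7 and 658 ± 52.7 normalized counts in the leukemia-free, vehicle and rIL-12 groups. All rIL-12 treated mice (601 to 705) lay above all vehicle mice (491 to 599.5). The log2 fold change between them was 0.32 (-0.01 to 0.64, adjusted p = 0.160), short of the threshold.

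Of the 3 NF-kB subunits on the panel, Nfkb2 was higher in leukemic mice of the vehicle group. Nfkb2 encodes a precursor that is cleaved to the DNA-binding subunit of the noncanonical pathway, which several TNF receptors activate. Normalized counts were 414, 353 and 362 without leukemia, 529, 617 and 602 with vehicle, and 394, 358 and 412 with rIL-12. All vehicle mice lay above all mice of both other groups, and those other groups overlapped almost fully. The log2 fold change of vehicle against no leukemia was 0.63 (standard error 0.15, 95% interval 0.30 to 0.95, adjusted p = 0.0423), a 1.55-fold increase. For rIL-12 against vehicle it was -0.58 (-0.91 to -0.26, adjusted p = 0.0231), and since the ratio of 0.667 is just short of a 1.5-fold change, Nfkb2 was not called there. Between rIL-12 and no leukemia it was 0.04 with an interval of -0.28 to 0.37.

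The direction of Nfkb2 held in every alternative run, with log2 fold changes of 0.57 to 0.74 for vehicle against no leukemia, but the call lay close to its threshold. It was lost without leukemia-free mouse 1, 2 or 3 (adjusted p = 0.168, 0.0963 and 0.248), vehicle mouse 2 or 3 (0.192 and 0.167) or rIL-12 mouse 1 or 2 (0.0502 and 0.0525). It was also lost with the replicate number as a block (adjusted p = 0.0616), and with median, housekeeping or DESeq2 size factor scaling (adjusted p = 0.0615, 0.0750 and 0.0676). The call held under 9 of 22 alternatives, and adjusted p for Nfkb2 ran from 0.0159 to 0.280 over all of them. For rIL-12 against vehicle, Nfkb2 was called under 6 alternatives, among them the replicate block and scaling by total count or housekeeping genes.

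Nfkb1 and Rela, which encode the subunits of the classical NF-kB dimer, were not called in any comparison. Nfkb1 had 1048, 851 and 960 normalized counts without leukemia, 1025, 973 and 957 with vehicle, and 1253, 1092 and 936 with rIL-12. All 3 groups overlapped, and the log2 fold changes were 0.05 (-0.29 to 0.38), 0.20 (-0.13 to 0.53) and 0.15 (-0.18 to 0.48) for vehicle and rIL-12 against no leukemia and rIL-12 against vehicle. Rela, the subunit with the transactivation domain, had 605, 632 and 594 without leukemia, 624, 693 and 553 with vehicle, and 454, 363 and 571 with rIL-12. The rIL-12 treated mice lay below all leukemia-free mice and overlapped the vehicle mice. For Rela the log2 fold change with rIL-12 was -0.40 (-0.79 to -0.01, adjusted p = 0.139) against no leukemia and -0.43 (-0.82 to -0.05, adjusted p = 0.107) against vehicle.

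The inhibitors of NF-kB hold the dimers in the cytoplasm, and none of the 3 was called. Nfkbia, which is degraded and resynthesized in each round of signaling, had 674, 584 and 605 normalized counts without leukemia, 697, 802 and 685 with vehicle, and 727, 610 and 547 with rIL-12. Its vehicle mice lay just above all leukemia-free mice and overlapped the rIL-12 treated mice, with a log2 fold change of 0.23 (-0.11 to 0.57, adjusted p = 0.608) for vehicle against no leukemia. Nfkbib had 431 ± 21.6 (SD, n = 3), 492 ± 24.6 and 483 ± 27.5, and both leukemic groups lay above all leukemia-free mice, with log2 fold changes of 0.19 and 0.16. Nfkbie had 101 ± 25.8, 118 ± 23.3 and 97.9 ± 8.26, with overlap between all groups.

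Tnfaip3, which encodes a deubiquitinase that limits NF-kB signaling, was lower in rIL-12 treated mice. Normalized counts were 571, 337 and 359 without leukemia, 373, 446 and 299 with vehicle, and 268, 231 and 256 with rIL-12. All rIL-12 treated mice lay below all mice of both other groups, and those 2 groups overlapped. Against no leukemia, Tnfaip3 fell by 0.74 on the log2 scale (standard error 0.22, 95% interval -1.22 to -0.27, adjusted p = 0.0323), a ratio of 0.597. Against vehicle the log2 fold change was -0.57 (-1.05 to -0.09, adjusted p = 0.0882), short of the threshold, and vehicle against no leukemia gave -0.17 (adjusted p = 0.766). Without leukemia-free mouse 1, the highest of the 9, the value was -0.45 (adjusted p = 0.185). The call was also lost without leukemia-free mouse 3 (-0.81, adjusted p = 0.0525) or rIL-12 mouse 2 (-0.69, adjusted p = 0.128), and over all alternatives adjusted p ran from 0.00833 to 0.200.

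As a set, 14 of the 20 members had log2 fold changes above 0 and 6 below 0 for vehicle against no leukemia, with a median of 0.12 beside 0.05 over all 785 probes. For rIL-12 against no leukemia 12 were above and 8 below 0, with a median of 0.08 beside 0.02, and for rIL-12 against vehicle 8 were above and 12 below, with a median of -0.13 beside -0.08. Vehicle and leukemia-free mice did not overlap for 4 members higher with vehicle (Tnfrsf9, Nfkb2, Nfkbia and Nfkbib) and for 0 members lower, where 12.7% and 9.81% of all probes had such a separation. For rIL-12 and no leukemia these were 2 members higher (Tnfsf10 and Nfkbib) and 4 lower (Tnfaip3, Tnfsf9, Tnfrsf10b and Rela), beside 18.9% and 16.7% of probes. Between rIL-12 and vehicle, 1 member was separate and higher (Traf2) and 3 were separate and lower (Tnfrsf9, Nfkb2 and Tnfaip3), beside 15.4% and 15.3%. For a single gene, separate groups of 3 mice give an exact two-sided permutation p = 0.1, the smallest that this design allows.

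**Figure D4:**
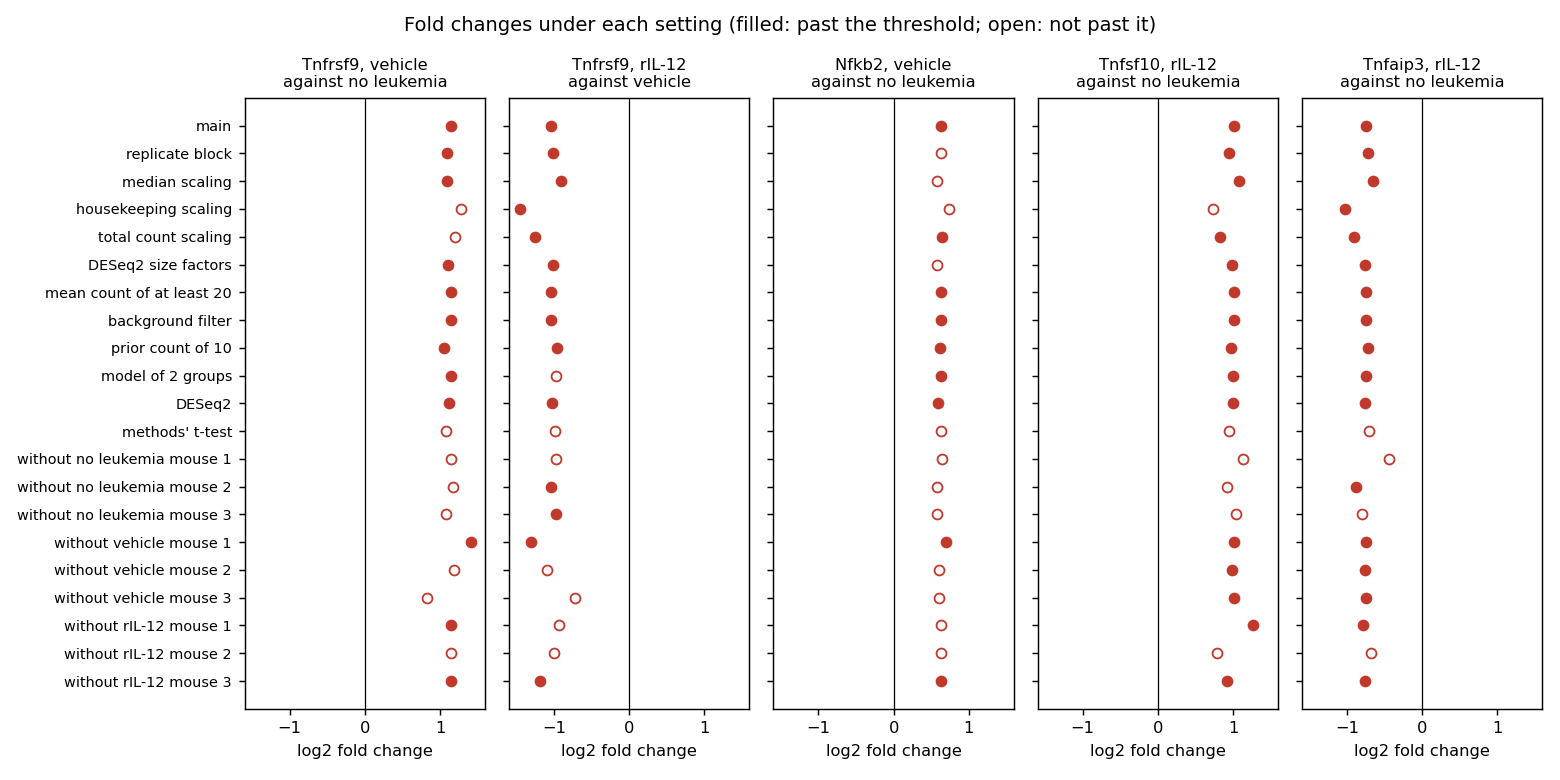
Log2 fold changes of the 5 calls under the reported setting (top line) and under the alternatives, with each mouse left out among them. Alternatives that change only the fold threshold are not drawn. Filled points passed the threshold and open points did not. Every point keeps the side of 0 of its reported value, and each call has open points.

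Among other genes of the pathway, the 19 reported here had a probe each. With vehicle against no leukemia edgeR called 0 of the 19, with 9 above and 10 below 0, and 0 had an unadjusted p under 0.05 or a call in DESeq2. With rIL-12, edgeR called 0 against no leukemia and 0 against vehicle, while 3 had an unadjusted p under 0.05 and DESeq2 called 1 in each of these comparisons. Of all 785 probes, edgeR called 21, 138 and 108 in vehicle against no leukemia, rIL-12 against no leukemia and rIL-12 against vehicle. In the same order, 119, 255 and 259 of the 785 had an unadjusted p under 0.05, and DESeq2 called 50, 150 and 136. Chuk, a catalytic subunit of the kinase that phosphorylates the inhibitors of NF-kB, had means of 1114, 1067 and 1497 normalized counts in the leukemia-free, vehicle and rIL-12 groups, with a log2 fold change of 0.43 (adjusted p = 0.0912) for rIL-12 against no leukemia. Malt1, a protease of T-cell receptor signaling to NF-kB, had 732, 642 and 684. The superfamily receptors that are named by another symbol were not called either: Cd27 had -0.60 (adjusted p = 0.0539) and the death receptor Fas -0.63 (adjusted p = 0.0759) with rIL-12 against no leukemia, and Cd40 had 0.07. The ligands Cd70, Cd40lg and Fasl had 0.15, -0.14 and 0.24 there.

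Markers of the labelled and of other cell types moved between the groups as well. The 8 T-cell markers on the panel had summed normalized counts of 4916 to 8036 without leukemia, 3384 to 4781 with vehicle and 1686 to 3346 with rIL-12. All 8 were called lower with rIL-12 against no leukemia, 2 of 8 were called lower with rIL-12 against vehicle, and 0 of 8 were called with vehicle against no leukemia, where 5 had an unadjusted p under 0.05 and DESeq2 called 4. Both CD8 markers were called lower in either leukemic group than without leukemia, and their sum was 1354 to 2629, 221 to 950 and 198 to 320, and Cd4 had 107 to 208, 201 to 369 and 84.9 to 201. Tnfaip3 and the T-cell sum were both lowest in the rIL-12 treated mice and both highest in leukemia-free mouse 1. Vehicle mouse 3 was next lowest in both (299 for Tnfaip3 and 3384 for the sum), while the remaining mice ranked differently in the 2. Vehicle mouse 2 had more Tnfaip3 (446) than leukemia-free mice 2 and 3 (337 and 359) but a lower T-cell sum (4781 against 4916 and 6560). All vehicle mice had a lower T-cell sum than all leukemia-free mice, while these groups overlapped for Tnfaip3. The part of T-cell content in the Tnfaip3 call was not tested.

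The 6 B-cell or B-ALL markers reported here summed to 1399 to 1515 normalized counts without leukemia, 1577 to 1704 with vehicle and 1580 to 1942 with rIL-12. Both leukemic groups lay above all leukemia-free mice in that sum, most of which was Btk, with means of 956, 1108 and 1237. Btk had the same separation, with 890 to 1034, 1098 to 1125 and 1099 to 1369 in the 3 groups. No other marker of the list had it in both leukemic groups, so the sum follows Btk and is no measure of the lineage. The 6 markers did not move together. Against no leukemia, 4 had log2 fold changes above 0 and 2 below with vehicle, and 3 above and 3 below with rIL-12. None of the 6 was called by edgeR or DESeq2 in any comparison, and at an unadjusted p under 0.05 there was 1, with rIL-12 against no leukemia. These markers do not cover every gene of that lineage, and the part of B-cell or B-ALL RNA in the values of Tnfrsf9 and Nfkb2 was not tested. The 8 myeloid markers summed to 7952 to 9374, 8706 to 12000 and 9028 to 12215. Most of that sum was Tyrobp, with means of 6058, 7656 and 7250. Cd68 and Fcgr1 were called higher with rIL-12 against no leukemia, and Itgax was called lower with rIL-12 against vehicle. The 3 mast cell or basophil markers summed to 961 to 1096, 1800 to 2116 and 1858 to 2125, and 2 of them were called higher in both leukemic groups than without leukemia, with log2 fold changes of 1.13 (vehicle) and 0.89 (rIL-12) for Ms4a2 and 0.94 and 1.12 for Cpa3. Their part in the calls of Tnfrsf9 and Nfkb2 with vehicle was not tested. The 5 NK cell markers summed to 2689 to 3170, 2222 to 3164 and 2632 to 3941. With rIL-12, Klrk1 was called higher against no leukemia (1.43) and against vehicle (1.37), and Klrd1 lower against no leukemia (-1.83). Some markers, such as Itgax, Ncr1, Cr2 and Cd14, had group means below the viral probe's mean raw count of 91, so their values may hold background. The part of these cell types in the Tnfsf10 call was not tested.

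**Figure D5:**
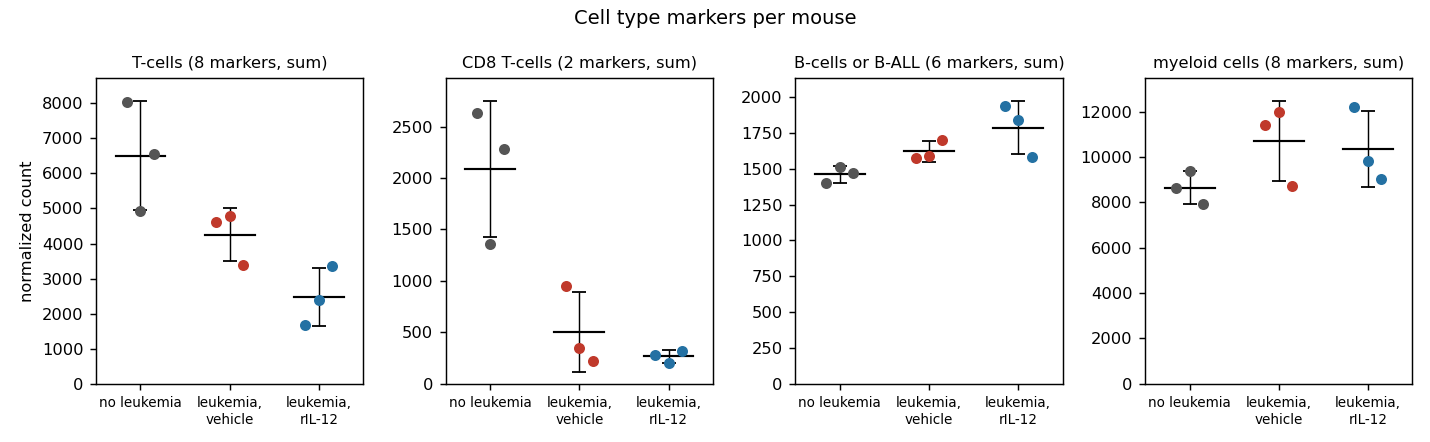
Summed normalized counts of the T-cell, CD8 T-cell, B-cell or B-ALL and myeloid markers, with 1 point per mouse, the group mean as a line and the SD as an error bar (n = 3 mice). The T-cell sum is lowest with rIL-12, where it lies between 1686 and 3346, and the CD8 sum is at most 950 in every leukemic mouse. Most of the B-cell or B-ALL sum is Btk, and most of the myeloid sum is Tyrobp.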

How the data were processed

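RNA of T-cell isolates from the bone marrow of 9 mice was measured on the nCounter Mouse Immune Exhaustion panel. As values, the authors deposited raw whole-number counts per probe and mouse for 785 probes. The nSolver normalization of their methods is not part of these values, and the assay's own control probes are not used here. A RefSeq table of transcript names gave symbols for 751 probes, and 34 were tested without one. The members, marker lists and pathway list were chosen with earlier results of these data known. A receptor that the rule leaves out, and some genes of the lists, are not reported here. Every member is described, with values in each mouse for members that were called and for Tnf, Nfkb1, Rela and Nfkbia. Counts of all probes were scaled with TMM and fitted in 1 model of 3 groups with edgeR 4.0.16 in R 4.3.3, with a prior count of 1. Low counts carry more counting error, so depth limits the members near background most. The correlation of deviations from the group means between mice with the same replicate number was 0.26, 0.11 and 0.13 for leukemia-free with vehicle mice, 0.01, -0.08 and -0.19 for leukemia-free with rIL-12 mice, and 0.33, 0.13 and 0.02 for vehicle with rIL-12 mice. Alternatives were other scalings, filters and thresholds, a replicate block, a model of the 2 groups compared, DESeq2 1.42.0, the methods' t-test and leaving out each mouse. The t-test was Student's t-test on log2 TMM-scaled counts, adjusted after Benjamini-Hochberg over all probes. The study normalized with nSolver, so this t-test is not its full procedure. Intervals are from the edgeR fit. Motifs were searched in RefSeq promoter windows.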

Additional observations from a re-analysis of the deposited data

How the results depend on the processing

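None of the 5 calls changed direction under any alternative. Of the 55 other values of a member in a comparison, 27 changed sign under at least 1 alternative, the largest of them at 0.52 on the log2 scale, and 9 passed the threshold under at least 1. With vehicle against no leukemia, the 2 members called higher became 1 with median scaling, total count scaling, DESeq2 size factors or a 2-fold threshold, 0 with housekeeping scaling or the methods' t-test, and 0 to 2 with 1 mouse left out, while 0 were lower throughout. With rIL-12 against no leukemia, the 1 higher became 0 with housekeeping scaling or the t-test and 0 to 2 with 1 mouse left out, and the 1 lower became 0 with the t-test or a 2-fold threshold and 0 to 1 with 1 mouse left out. With rIL-12 against vehicle, the 0 higher became 1 with median scaling or DESeq2 and 0 to 1 with 1 mouse left out, and the 1 lower became 7 with housekeeping scaling, 4 with total count scaling, 2 with no fold threshold, 0 with a model of only these 2 groups or the t-test, and 0 to 3 with 1 mouse left out.

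The replicate block gave 1 member higher with vehicle against no leukemia and 2 lower with rIL-12 against vehicle, and changed no other count of members. All 3 pairs of leukemia-free and vehicle mice with the same number correlated above 0.1 in their deviations from the group means, which was not so for all pairs in either other comparison. Mice with different numbers reached similar values, from -0.40 to 0.23 over the 3 comparisons, with 0.13 for leukemia-free mouse 2 and vehicle mouse 3. The paper states that mice were allocated to the groups at random. The labels give no shared litter, batch or day for a number, and whether the numbers pair the mice was not settled.

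Over all probes, the count of calls with vehicle against no leukemia was 21, and 3 with housekeeping scaling, 63 with the model of 2 groups, 50 with DESeq2, 0 with the t-test and 0 to 42 with 1 mouse left out. With rIL-12 against no leukemia it was 138, and 0 with the t-test, 72 with a 2-fold threshold and 66 to 194 with 1 mouse left out. With rIL-12 against vehicle it was 108, and 229 with housekeeping scaling, 27 with the model of 2 groups, 0 with the t-test, 49 with a 2-fold threshold and 0 to 199 with 1 mouse left out.

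Scaling moved the balance of higher and lower calls. With vehicle against no leukemia it was 10 to 11, and 9 to 20 with median scaling and 2 to 1 with housekeeping scaling. With rIL-12 against no leukemia it was 70 to 68, and 22 to 96 with housekeeping and 37 to 83 with total count scaling. With rIL-12 against vehicle it was 67 to 41, and 109 to 30 with median, 23 to 206 with housekeeping and 42 to 85 with total count scaling. Housekeeping scaling shifted the all-probe median of the log2 fold changes to 0.16, -0.27 and -0.49 in the 3 comparisons, and total count scaling to 0.07, -0.15 and -0.28. A scaling shifts all probes by nearly the same amount, so a value relative to that median stays nearly constant for any gene. With vehicle against no leukemia it was 1.10 to 1.13 for Tnfrsf9 and 0.58 for Nfkb2 under all 5 scalings, which says nothing about the calls. The Tnfrsf9 call in that comparison was lost with housekeeping (adjusted p = 0.0915) and total count scaling (adjusted p = 0.0874).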
